A study of Mus musculus with 8 samples.

Results

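The genes described here are 41 interferon-stimulated genes, chosen by name as targets of type I and type II interferon with the Ifitm family left out, and followed through single-cell RNA profiles of mouse CD4 T cells. Of the 41 genes, 40 were among the 16649 deposited gene symbols, 39 passed the count filter when all cells of a library were summed, and Oas1a did not pass. Mx1 was not analysed here. The 41 genes were chosen with earlier results of these data known. Counts of them beside the share of all genes are therefore a description and no test of the group. T cells came from the spleens of female mice 10 weeks of age whose Gpr65 gene, which encodes a proton-sensing receptor, was intact (WT) or knocked out (KO). The cells of both genotypes were polarized in culture and harvested on day 3. For Th17 the medium held 25 ng/ml IL-6, for Th22 40 ng/ml IL-6 and 400 nM FICZ, which activates the aryl hydrocarbon receptor, and both media held 20 ng/ml IL-1b and 20 ng/ml IL-23. A difference between Th22 and Th17 is therefore a difference in FICZ and in IL-6 together. Each of the 4 groups had 2 libraries, and the labels name no inbred strain and do not say which part of Gpr65 was deleted or whether libraries came from separate animals. The p-values therefore weigh a difference against the spread among these libraries, part of which may be technical.

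Interferons are secreted proteins that alert cells to infection. Type I interferons act through the receptor Ifnar1 and Ifnar2 and a factor complex that includes Stat2 and Irf9 and binds the interferon-stimulated response element (ISRE). Type II interferon, the product of Ifng, acts through Ifngr1 and Ifngr2, and many of its target genes hold the gamma-activated sequence (GAS). T cells respond to both, and some of the induced genes, such as the RNA sensors and Irf7, feed back on interferon production.

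Promoter sequences are shown because they give the elements that several of the genes share, which the choice by name did not use. Windows from 250 bases before to 50 bases after the RefSeq start (GRCm38.p6) were found for 32 of the 41 genes. Usp18, Ifi27l2a, Parp14, Parp9, Ifi27, Rtp4, Zbp1, Dhx58 and Mx1 had none. An ISRE, searched on both strands as a pair of GAAA runs with any 2 bases between them, lay in at least 1 window of 18 of the 32 genes (56.2%), against 3.99% of 27025 genes. A GAS, searched as TTCNNNGAA, lay in 9 of the 32 (28.1%), against 9.55% of the same genes. The motifs are letter matches and not measured binding sites. The 250 bases before the start follow for the 4 genes that had more than 50% of their transcripts in cluster 8, described below, and for Igtp, which carries both motifs. Of the 4, Oasl1 had the highest share and no match to either motif in its window. Lower case is flanking sequence, and capitals mark ISRE matches on either strand and, in Igtp, the GAS match that precedes the ISRE.
Isg15: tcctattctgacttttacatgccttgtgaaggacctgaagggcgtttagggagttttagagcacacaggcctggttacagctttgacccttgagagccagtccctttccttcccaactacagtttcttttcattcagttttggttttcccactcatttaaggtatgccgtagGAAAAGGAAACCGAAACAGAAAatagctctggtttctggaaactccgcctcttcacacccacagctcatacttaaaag
Ifit1: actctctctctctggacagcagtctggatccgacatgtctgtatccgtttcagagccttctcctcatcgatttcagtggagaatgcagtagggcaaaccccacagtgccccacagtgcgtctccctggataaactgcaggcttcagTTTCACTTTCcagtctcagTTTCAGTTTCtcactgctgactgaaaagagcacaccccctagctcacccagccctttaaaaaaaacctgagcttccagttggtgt
Ifit3: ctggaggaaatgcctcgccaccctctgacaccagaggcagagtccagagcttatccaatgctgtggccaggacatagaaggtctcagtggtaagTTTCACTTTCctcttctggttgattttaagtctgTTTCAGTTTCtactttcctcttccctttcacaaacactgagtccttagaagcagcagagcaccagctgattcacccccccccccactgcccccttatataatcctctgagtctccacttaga
Oasl1: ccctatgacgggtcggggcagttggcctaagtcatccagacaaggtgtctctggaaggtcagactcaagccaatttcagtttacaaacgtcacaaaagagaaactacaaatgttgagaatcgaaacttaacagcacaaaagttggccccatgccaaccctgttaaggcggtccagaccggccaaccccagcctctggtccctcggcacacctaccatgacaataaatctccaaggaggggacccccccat
Igtp: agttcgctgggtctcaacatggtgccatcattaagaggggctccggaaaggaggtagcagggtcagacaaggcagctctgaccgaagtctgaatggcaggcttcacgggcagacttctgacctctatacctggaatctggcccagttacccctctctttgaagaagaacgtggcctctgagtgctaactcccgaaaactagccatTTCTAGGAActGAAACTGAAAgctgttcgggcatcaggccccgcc
Isg15, whose product is a ubiquitin-like modifier, is read from the minus strand and this stretch is chr4:156200819-156201068. Its 3 overlapping ISRE matches began 78, 72 and 66 bases before the start. Ifit1 and Ifit3 encode proteins that bind viral RNA and lie on the plus strand of chromosome 19 (chr19:34640639-34640888 and chr19:34583279-34583528), each with 2 ISRE matches on the reverse strand, at 104 and 85 bases before the start in Ifit1 and at 156 and 122 in Ifit3. Oasl1 lies on the plus strand (chr5:114922990-114923239). Igtp, an immunity-related GTPase, lies on the plus strand (chr11:58199306-58199555), with a GAS 45 and an ISRE 34 bases before the start. Ddx58 and Ifih1 had their ISRE matches after the start, at 2 and 32 bases, and no ISRE or GAS of these letters lay in the windows of Irf7, Irf9 and Oasl2.

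The 8 libraries held 101688 cells after filtering, between 9969 and 15119 each, with a median depth of 2354 to 4142 UMIs (unique molecular identifiers, 1 per captured transcript) per cell and 33826527 to 58895019 UMIs in all. Any pair of libraries shared at most 67 cell barcodes, and at most 0.56% of those of the smaller library. Levels are UMIs per 1000000 UMIs of the same cells, written here as UPM, and a pair of values gives replicate 1 and then replicate 2. Gpr65 was at 51.7 to 75.8 in the WT libraries and at 0.86 to 1.67 in the KO libraries, so each library matched its genotype label. The 10 T cell markers summed to between 4448 and 5898 UPM, the 6 B cell markers to at most 2.08, and the dendritic cell, neutrophil and erythroid lists to at most 1.13. Markers of gamma-delta T cells summed to 16.8 to 36.9, of CD8 T cells to 10.2 to 14.0 and of NK cells to 6.50 to 17.1. The files held only 3 of 6 dendritic cell, 2 of 4 neutrophil, 2 of 5 erythroid and 3 of 5 NK cell markers. A summed level does not separate the number of cells with a transcript from the amount per cell.

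In the GENCODE vM21 annotation of mm10, the build the files use, the 7 genes that the tests over all cells call lie as follows: Ifih1 at chr2:62595798-62646255, Ddx58 at chr4:40203773-40239828, Isg15 at chr4:156199424-156200818, Irf7 at chr7:141262706-141266481, Ifi27 at chr12:103434211-103440239, Ifi27l2a at chr12:103442167-103443680 and Parp14 at chr16:35832874-35871544. Ifi27 is on the plus strand and the other 6 are on the minus strand. The counts are sums over a whole gene and do not separate exons from introns. An exon of Irf7 overlaps Phrf1 on the opposite strand and one of Parp14 overlaps Gm49730 on its own strand. Near-identical copies occur in the Ifit, Oas, Gbp, Slfn and Ifi27 families, so the split of reads among members of a family is uncertain.

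Of the 39 tested genes, 5 changed between KO and WT over both cultures, a count that rests on treating the 4 libraries of a genotype as separate. Ifih1, Ifi27, Isg15 and Irf7 were higher in KO (1.41% of all genes were) and Ddx58 was lower (1.52%). These 5 of 39 stand beside 2.93% of all 13412 genes that passed the same test, edgeR's quasi-likelihood F test with Benjamini-Hochberg adjustment over all genes. Of the 39 genes, 27 had a positive log2 fold change, and their median was 0.20 beside -3.6e-05 for all genes tested. DESeq2 called 7 of the 39, adding Ifit1 and Oas3, where it called 7.02% of all genes. Same-numbered libraries of a genotype deviated together, and when they were summed, which leaves 2 units per genotype, none of the 39 genes was called (0.0431% of 13927 genes were). The log2 fold changes in that fit were 0.71 for Ifih1, 0.98 for Ifi27, 1.07 for Isg15, 0.61 for Irf7 and -0.40 for Ddx58, with edgeR adjusted p = 0.27, 0.29, 0.24, 0.44 and 0.45.

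The RNA sensors moved apart. Ifih1 encodes MDA5, a helicase that detects long double-stranded RNA in the cytosol. It stood at 9.30 and 9.59 UPM in KO Th17, 6.55 and 6.32 in KO Th22, 5.50 and 5.21 in WT Th17, and 4.36 and 4.65 in WT Th22. Every KO library lay above every WT library, and the log2 fold change was 0.70 ± 0.08 (SE, n = 4 libraries per genotype, edgeR adjusted p = 0.0061). Ddx58 encodes RIG-I, the sister helicase that detects short RNA with a terminal phosphate. It stood at 10.0 and 10.2 in KO Th17 and 13.5 and 13.3 in WT Th17, and at 14.99 and 14.92 in KO Th22 and 20.6 and 22.1 in WT Th22. KO lay below WT within each culture, while the KO Th22 libraries lay above the WT Th17 libraries, and KO over WT gave a log2 fold change of -0.42 ± 0.07 (adjusted p = 0.019). Dhx58, a regulator of both helicases, had 0.30 ± 0.18, Zbp1, a sensor of Z-form nucleic acid, 0.30 ± 0.11, and Eif2ak2, the kinase PKR, 0.20 ± 0.13, none of them called.

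Isg15 stood at 19.9 and 16.1 UPM in KO Th17, 13.7 and 17.7 in KO Th22, 8.96 and 10.97 in WT Th17, and 5.54 and 8.29 in WT Th22. All KO libraries lay above all WT libraries, with a log2 fold change of 1.05 ± 0.18 (adjusted p = 0.02). Usp18, the protease that removes Isg15 from its targets and damps type I interferon signalling, was at 4.66 and 3.94 in KO Th17, 5.55 and 5.18 in KO Th22, 2.51 and 3.84 in WT Th17, and 2.49 and 4.59 in WT Th22. The groups overlapped, and its log2 fold change of 0.55 ± 0.21 was not called (adjusted p = 0.19). Irf7, the transcription factor that drives type I interferon genes, was at 6.20 and 7.80 in KO Th17, 7.45 and 8.83 in KO Th22, 4.58 and 4.53 in WT Th17, and 5.34 and 6.28 in WT Th22. KO lay above WT within each culture, the lowest KO library fell just under the highest WT library, and the log2 fold change was 0.59 ± 0.12 (adjusted p = 0.039). The other 3 transcription factors were not called.

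Irf9, the DNA-binding subunit of the type I complex, was at 26.1 to 28.0 UPM in KO and 23.6 to 28.7 in WT (log2 fold change 0.09 ± 0.08). Stat2 was at 10.7 to 12.2 and 8.87 to 14.2 (0.07 ± 0.13), and Irf1, an early target of type II interferon, at 34.6 to 41.8 and 31.4 to 46.1 (0.06 ± 0.09). For each of the 3 the KO range lay inside the WT range.

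Ifi27, which encodes a mitochondrial membrane protein, rose in KO. It stood at 127 and 142 UPM in KO Th17, 134 and 185 in KO Th22, 58.6 and 66.2 in WT Th17, and 75.8 and 110 in WT Th22. All KO libraries lay above all WT libraries, and the log2 fold change was 0.98 ± 0.15 (adjusted p = 0.015). Its neighbour on chromosome 12, Ifi27l2a, was not called (-0.11 ± 0.10). Among the other interferon-induced genes, Xaf1, an antagonist of apoptosis inhibitors, had 0.49 ± 0.20 and the Schlafen family gene Slfn5 0.37 ± 0.11, with adjusted p = 0.23 and 0.11.

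None of the 8 tested antiviral effectors and none of the 3 tested oligoadenylate synthetase genes passed the edgeR test, with 7 of 8 and 3 of 3 positive. Ifit1 was at 2.46 to 5.30 UPM in KO and 1.29 to 3.20 in WT (log2 fold change 0.78 ± 0.23, adjusted p = 0.12), and Ifit3 at 0.31 to 1.05 and 0.26 to 0.48 (0.85 ± 0.41, adjusted p = 0.31, and 0.07 ± 0.40 outside cluster 8). Rsad2, which encodes viperin, was at 0.42 to 1.21 in KO and 0.55 to 0.93 in WT (0.07 ± 0.31). Bst2, which encodes tetherin, a protein that holds budding virus at the cell surface, was at 181 to 212 in KO and 156 to 194 in WT (0.19 ± 0.07, adjusted p = 0.18). Oas3 makes the second messenger that activates RNase L, and its log2 fold change was 0.62 ± 0.18 (adjusted p = 0.10). Oasl1, a related protein without that activity that restrains Irf7 translation, was at 0.44 to 1.20 and 0.065 to 0.59 (1.19 ± 0.40, adjusted p = 0.15), with 167 UMIs in all libraries together. Samhd1, an enzyme that depletes nucleotides, was the 1 gene whose KO libraries all lay below the WT libraries (244 to 298 against 311 to 347). It was not called (-0.19 ± 0.09, edgeR adjusted p = 0.27). In all, 3 of 40 genes had every KO library above every WT library and 1 of 40 every KO library below, beside 3.08% and 5.99% of all genes.

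The GTPases of the type II response were not called between KO and WT. Of 6, 1 had a positive log2 fold change, and Igtp did too with median UMIs per cell as a covariate (0.013), while the median of the 6 was -0.09. GTPases of this response take part in the defence against pathogens that live in vacuoles. Gbp2 was at 80.9 to 128 UPM in KO and 110 to 145 in WT, Igtp at 25.9 to 42.6 and 27.7 to 46.2, Irgm1 at 5.21 to 8.18 and 6.03 to 10.8, and Ifi47 at 17.6 to 34.6 and 20.0 to 34.4. The genotypes overlapped in all 4. Parp9, Parp14 and Dtx3l, which encode ADP-ribosyltransferases and a ubiquitin ligase partner, were at -0.11 ± 0.13, -0.04 ± 0.09 and -0.29 ± 0.12.

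**Figure D1:**
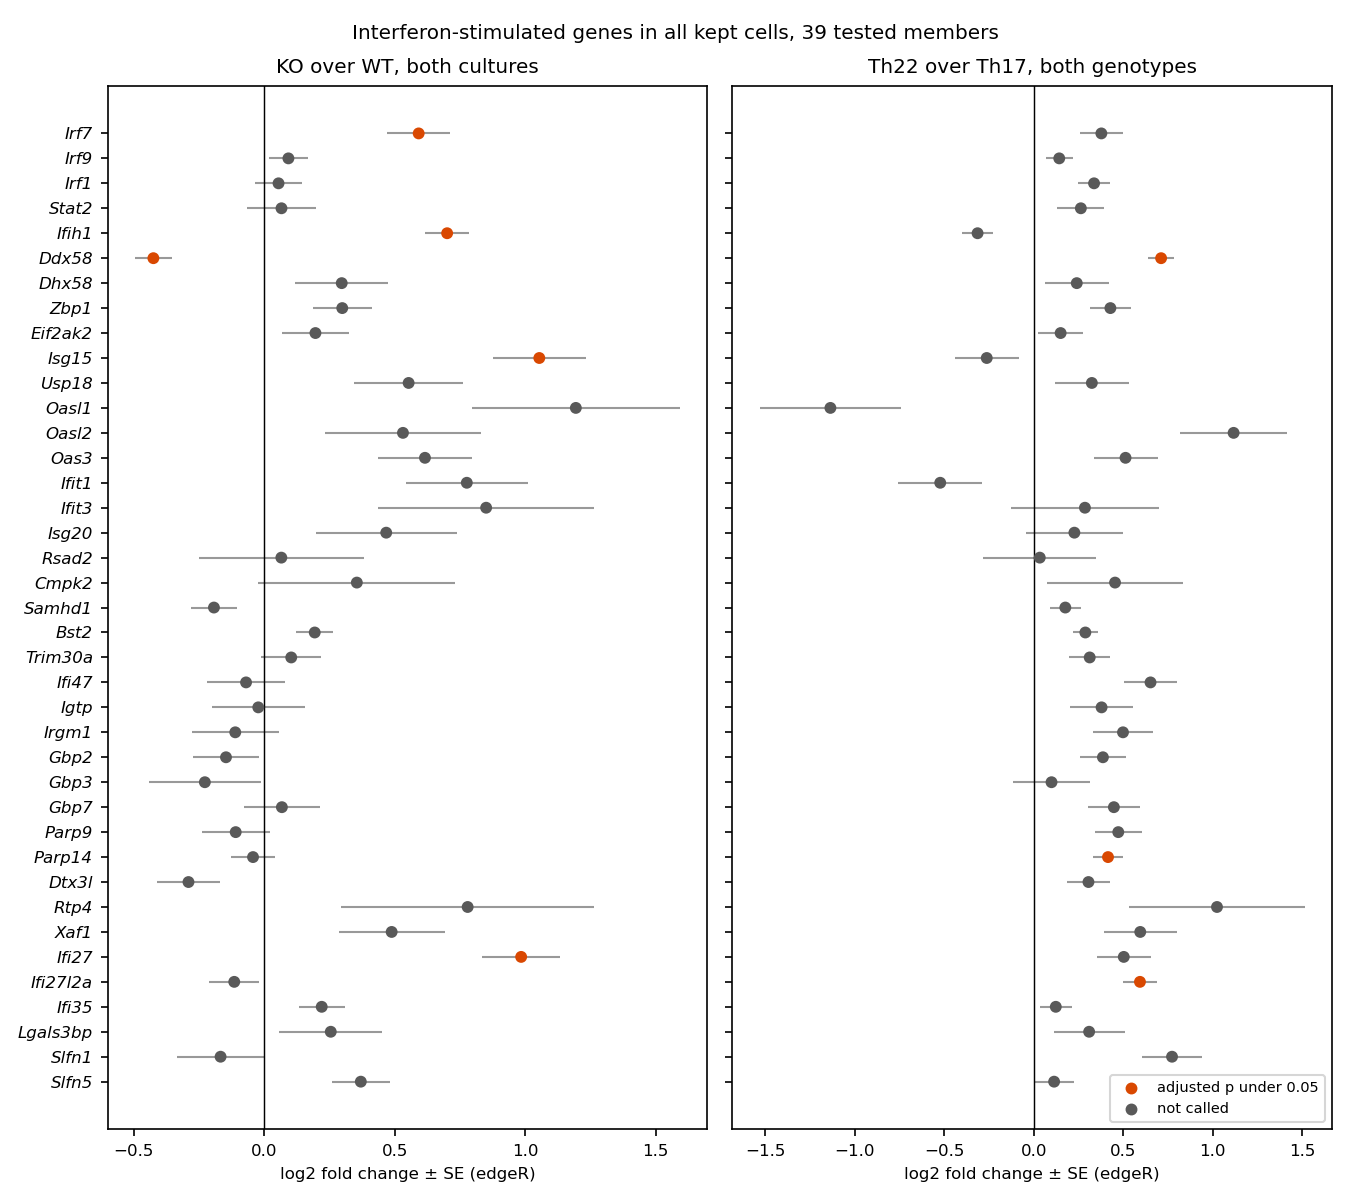
Log2 fold change ± SE of 39 tested interferon-stimulated genes in all cells, KO over WT (left) and Th22 over Th17 (right), with orange points for an adjusted p under 0.05. On the left 4 orange points lie to the right of 0 and Ddx58 to the left, and on the right Ddx58, Parp14 and Ifi27l2a are orange.

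Taken 1 culture at a time, no gene of the 39 was called between KO and WT, in Th17 (8 at an unadjusted p under 0.05, 2 by DESeq2) or in Th22 (11 and 3). The background was 0.186% and 0.149% of all genes by edgeR and 1.49% and 1.07% by DESeq2. The sizes were near those over both cultures: Isg15 had 0.80 ± 0.24 in Th17 and 1.30 ± 0.24 in Th22, Ifih1 0.78 ± 0.12 and 0.63 ± 0.12, Ifi27 1.06 ± 0.23 and 0.91 ± 0.22, Irf7 0.58 ± 0.18 and 0.61 ± 0.18, and Ddx58 -0.45 ± 0.11 and -0.40 ± 0.10. Leaving out 1 library at a time gave between 1 and 8 calls. Ifih1 stayed called under each such fit. Isg15 was lost without KO Th17 replicate 1, WT Th17 replicate 1 or either WT Th22 library, and Ifi27 without either WT Th17 library. Each WT library and KO Th17 replicate 1 was needed for the call of Ddx58, and Irf7 was lost without any 1 library other than KO Th22 replicate 1.

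**Figure D2:**
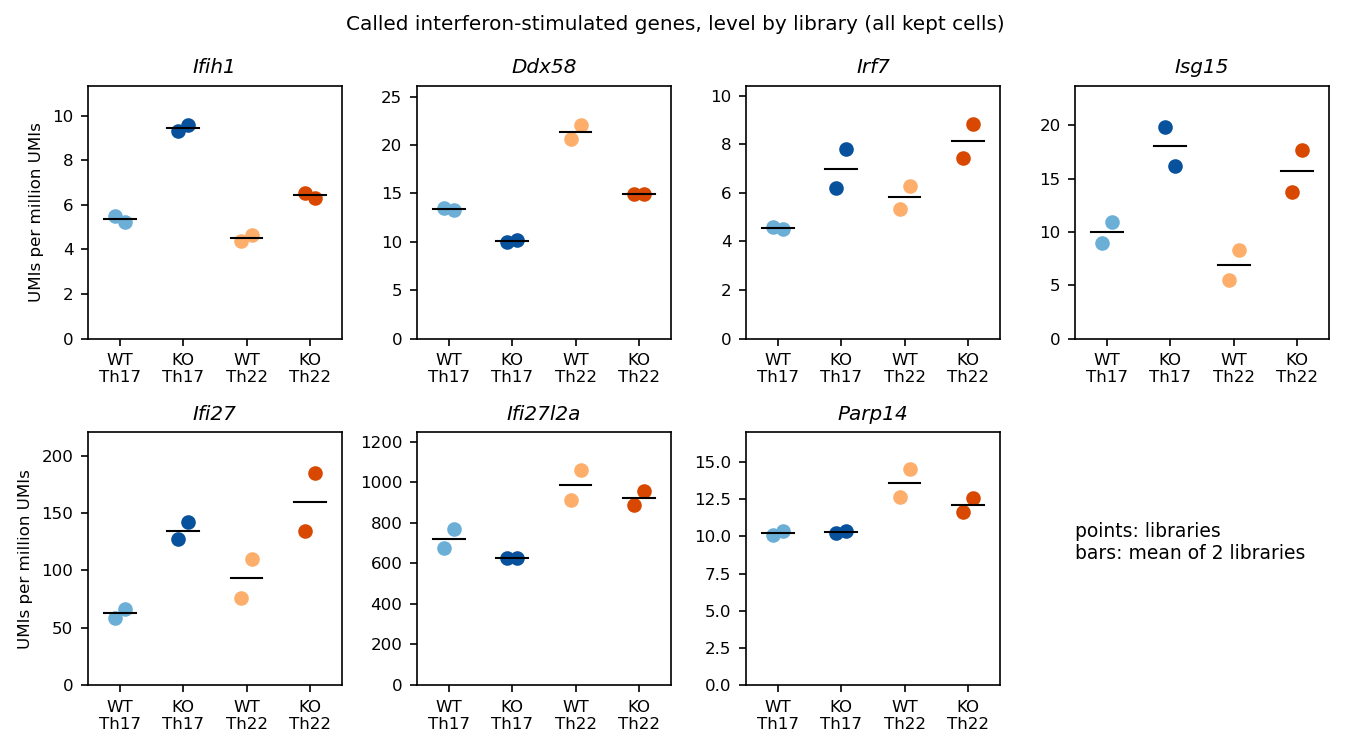
Level in UPM of the 7 interferon-stimulated genes called in all cells, by group, with 1 point per library and a bar for the mean of 2. Ifih1, Isg15 and Ifi27 are higher in each KO library than in each WT library, and Ddx58 and Ifi27l2a are higher in each Th22 library than in each Th17 library.

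The share of cells with a UMI differed in the same direction as the levels. Thinning each cell to 1500 UMIs was possible for 93046 cells and not for 8642 shallower ones. Among the thinned cells an Isg15 UMI was found in 1.78% to 2.54% of cells in the KO libraries and 0.760% to 1.30% in the WT libraries. The mean difference was 1.10 percentage points, 0.428 for Ifih1, 0.354 for Irf7 and -0.632 for Ddx58. Each of these 4 had an exact two-sided permutation p = 0.0556 within culture, the smallest its 36 arrangements allow, and 0.0833 after adjustment over 6 shares tested. The arrangements treat the libraries of a genotype as separate, although same-numbered ones deviated together, so these p-values may be too small. Without thinning the differences were 1.84, 0.815, 0.775 and -1.50 points, with an exact p = 0.111 for Irf7 and for Ddx58. For Ifit3 the difference was 0.024 points (exact p = 0.28). No cell type known to lack these genes was among the cells, so the background that free RNA adds could not be measured.

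Between Th22 and Th17 the genes as a group leaned higher in Th22: 35 of 39 log2 fold changes were positive, with a median of 0.32 beside 0.0044 for all genes. By edgeR, 3 of the 39 were called, all higher in Th22, beside 1.94% of all genes. Libraries with the same number deviated together across the cultures of a genotype, and a fit with that number as a block called 21 of the 39, 19 higher and 2 lower, beside 11.9% of all genes. DESeq2 without the block called 11, all higher (background 4.12%). With the median UMIs per cell of each library as a covariate, 1 was called, and that median was 2430 and 2354 in the KO Th17 libraries against 4142 and 3669.5 in KO Th22, while in WT it was 2489 and 3847 against 2627 and 3679. The part of depth in the Th22 difference was not tested further.

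Ddx58 was called in this comparison under each of the 16 alternatives tried, with a log2 fold change of 0.71 ± 0.07 (edgeR adjusted p = 0.0025), and all 4 Th22 libraries lay above all 4 Th17 libraries. Ifi27l2a, from a family of small membrane proteins, stood at 629 and 629 UPM in KO Th17, 676 and 770 in WT Th17, 888 and 960 in KO Th22, and 915 and 1062 in WT Th22. Its log2 fold change was 0.59 ± 0.10 (adjusted p = 0.019), with no overlap between the cultures, and it was not called without KO Th17 replicate 1 or 2, WT Th17 replicate 1 or WT Th22 replicate 2. Parp14, an ADP-ribosyltransferase, was at 10.1 to 10.4 UPM in Th17 and 11.7 to 14.5 in Th22, again without overlap (0.41 ± 0.09, adjusted p = 0.048), and was not called without any 1 library other than KO Th22 replicate 1. In all, 7 of 40 genes had every Th22 library above every Th17 library, beside 1.39% of all genes, and 0 of 40 the reverse, beside 6.58%. The other 4 were Irf1, Ifi47, Parp9 and Slfn1.

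The block called most of the type II GTPases, 4 of 6: Ifi47 (0.64 ± 0.07), Irgm1 (0.50 ± 0.10), Gbp7 (0.45 ± 0.07) and Igtp (0.38 ± 0.06). It also called Slfn1 (0.78 ± 0.07), Oasl2 (1.12 ± 0.24), Zbp1 (0.42 ± 0.07), Irf7 (0.38 ± 0.07), Irf1 (0.33 ± 0.05), Bst2 (0.29 ± 0.06) and Stat2 (0.26 ± 0.07) as higher in Th22. Lower in Th22 under the block were Ifih1 (-0.32 ± 0.07, adjusted p = 0.022) and Ifit1 (-0.49 ± 0.12, adjusted p = 0.031). Without the block these 2 had -0.31 ± 0.08 and -0.52 ± 0.23 and were not called, nor were Oasl1 (-1.14 ± 0.40, adjusted p = 0.22) and Isg15 (-0.26 ± 0.18), the other genes with a lower level in Th22. Ddx58 and Ifih1 thus had opposite signs in both comparisons. In WT alone and in KO alone no gene was called without the block by edgeR (11 and 15 at an unadjusted p under 0.05), where 0.149% and 0.119% of all genes were. DESeq2 called 2 and 3 (background 1.09% and 1.35%), and edgeR with the block 19 and 21 (background 12.9% and 16.9%).

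The genotype difference was not shown to depend on the culture. The interaction was called for 0 of 39 genes and 0.0% of 13412 genes by edgeR (1 of the 39 at an unadjusted p under 0.05), and for 0 of the 39 and 0.0447% of all genes by DESeq2. With the block 3 genes were called, beside 4.1% of all genes: Gbp3 (0.63 ± 0.12, adjusted p = 0.015), Gbp2 (0.45 ± 0.11, adjusted p = 0.046) and Dtx3l (-0.51 ± 0.11, adjusted p = 0.025). For Gbp2 KO over WT was -0.36 ± 0.16 in Th17 and 0.07 ± 0.16 in Th22, and Dtx3l -0.03 ± 0.12 and -0.55 ± 0.12. Dtx3l stood at 33.7 and 34.9 UPM in KO Th17, 35.8 and 32.3 in WT Th17, 31.0 and 32.1 in KO Th22, and 44.5 and 55.2 in WT Th22, so WT Th22 was the group that stood apart.

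The authors' cluster 8 held 2038 of the cells (2.00%), between 157 and 389 per library, and 1.83% of all UMIs. It held 389 of 14262 and 386 of 14075 cells in KO Th17, and 200 of 11829 and 209 of 9969 in WT Th17. In Th22 it held 157 of 10711 and 356 of 14370 in KO, and 165 of 15119 and 176 of 11353 in WT. The part of cluster size in the differences between KO and WT over all cells was not tested. Among genes with a mean level of at least 20 UPM in the cluster, its leading genes by fold were Ccl5, Isg15, Ifit1, Ccrl2 and Cxcl10. The clusters were made from the expression of these cells, so the values of the cluster against the rest are a description with no test. An Isg15 UMI was found in 43.7% of its thinned cells on average, against 0.81% outside. Median depth in the cluster ran from 2215.5 to 3878 UMIs per cell and outside from 2351 to 4152. The T cell markers summed to 4467 to 6458 UPM inside, as they did outside (4447 to 5891), and 4 of the 6 B cell markers were at 0.

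Cluster 8 did not hold all of the interferon-stimulated genes alike. It held more than 50% of the UMIs of 4 of them: Oasl1 (67.1%), Ifit3 (59.1%), Isg15 (54.2%) and Ifit1 (52.7%). Rsad2 followed with 30.0%, Oasl2 with 18.3%, Rtp4, a chaperone of receptors, with 13.9% and Ifih1 with 12.5%. Isg15 averaged 378 UPM inside and 5.81 outside, a ratio of 65.0, and Ifih1 42.0 inside, a ratio of 7.34. For Irf7 the ratio was 3.75. At the other end, Irf1 (1.97%), Ddx58 (1.98%), Samhd1 (2.07%) and Gbp2 (2.10%) had little more in the cluster than its 1.83% of UMIs. In all, 18 of 40 genes had a mean level inside of at least 2 times that outside, where 3.28% of all genes did, and 26 were higher inside in all 8 libraries, where 3.9% of all genes were. After thinning, a cell of cluster 8 had a median of 3 or 4 of the 40 genes, against 2 outside. In all, 16 cells inside and 21 of the far more numerous cells outside had 10 or more. These were 0% to 4.17% of the cells of a library inside and 0% to 0.0518% outside, and 6 of the 16 came from KO Th22 replicate 1.

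**Figure D3:**
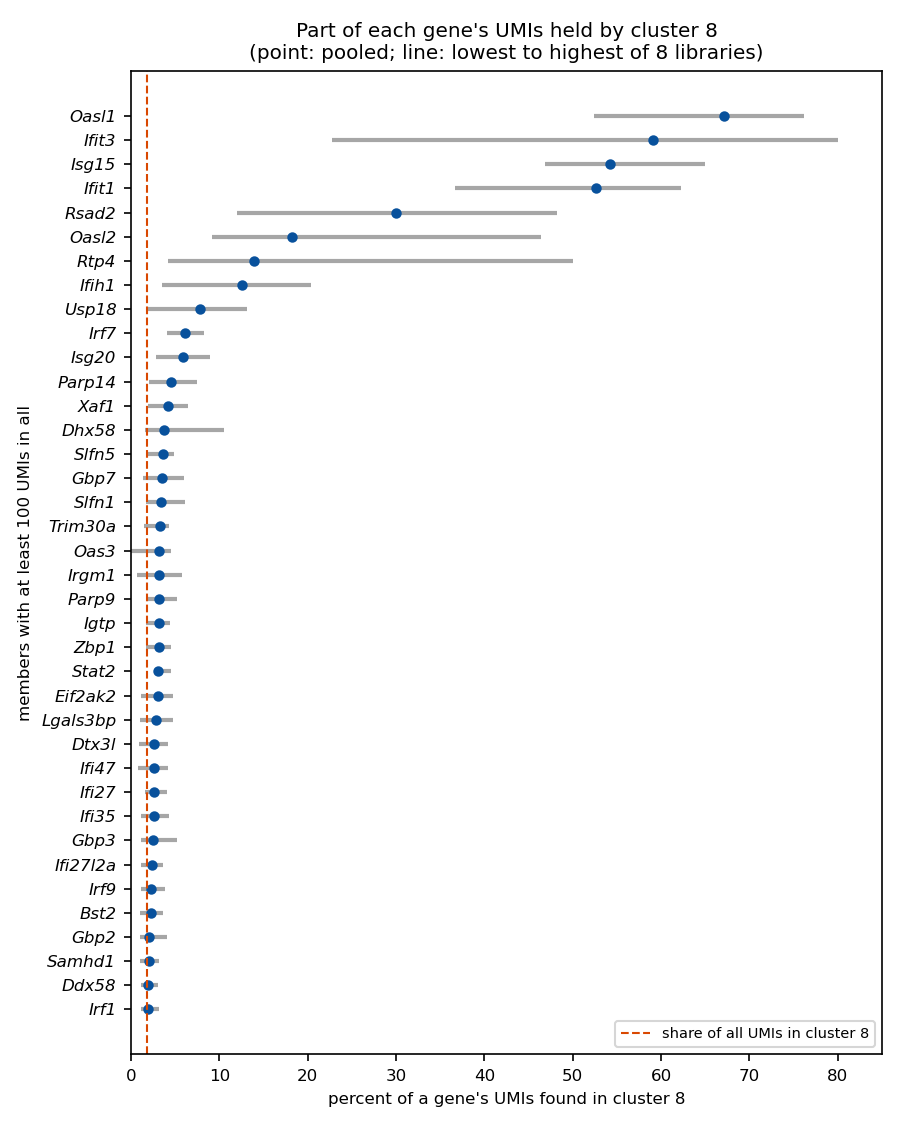
Percent of the UMIs of each interferon-stimulated gene that lay in cluster 8, as the pooled value (point) and the range over 8 libraries (line), for genes with at least 100 UMIs. Oasl1, Ifit3, Isg15 and Ifit1 lie above 50%, and Irf1, Ddx58, Samhd1 and Gbp2 near the dashed line at the 1.83% of all UMIs.

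Within cluster 8, none of 35 tested genes was called between KO and WT by edgeR (5 at an unadjusted p under 0.05) or by DESeq2, beside 0.381% and 0.213% of 6561 genes. For KO against WT the block paired same-numbered libraries across genotypes, which did not deviate together. With it 1 gene was called, Ifi27 (0.61 ± 0.13, edgeR adjusted p = 0.011), beside 0.533% of all genes. With same-numbered libraries of a genotype summed, Ifi27 was not called (edgeR adjusted p = 0.77). In the cluster Isg15 was at 444 and 314 UPM in KO Th17, 541 and 420 in KO Th22, 341 and 271 in WT Th17, and 360 and 333 in WT Th22, which overlapped (0.35 ± 0.12, adjusted p = 0.26). KO Th22 replicate 1 stood apart for Ifit3, at 70.5 UPM against 4.14 to 18.4 in the other libraries, and for Rsad2, at 42.3 against 4.59 to 18.5. For Ifit1 this library was at 146 and KO Th17 replicate 1 at 114, against 50.2 to 92.7 in the others.

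Outside cluster 8, 4 of 39 genes were called between KO and WT, beside 2.86% of all genes: Ifi27 (0.9967 ± 0.15), Ifih1 (0.66 ± 0.10), Irf7 (0.59 ± 0.12) and Ddx58 (-0.42 ± 0.07). Isg15 outside the cluster was at 7.70 and 7.32 UPM in KO Th17, 7.37 and 9.24 in KO Th22, 3.57 and 5.26 in WT Th17, and 1.96 and 4.08 in WT Th22. Every KO library lay above every WT library, and the log2 fold change of 1.16 ± 0.26 missed the threshold of 0.05 (adjusted p = 0.054). Of the 4, Ifih1 and Irf7 were lost without any 1 WT library, Ddx58 without any 1 WT library or KO Th17 replicate 1, Ifi27 without either WT Th17 library, and Irf7 also without KO Th17 replicate 1 or 2 or KO Th22 replicate 2.

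Genes that rose in Th22 within cluster 8 came from several families. There were 8 of 35 called, all higher, beside 1.69% of all genes, with a median log2 fold change of 0.64 over the 35. Slfn1, a Schlafen gene linked to T cell quiescence, was at 32.1, 35.8, 38.9 and 40.8 UPM in the Th17 libraries and 91.7, 66.2, 56.7 and 72.7 in the Th22 libraries, KO before WT (1.09 ± 0.19, edgeR adjusted p = 0.00075). Igtp was at 33.0, 53.3, 29.7 and 55.2 against 102, 84.4, 52.3 and 81.1 (1.01 ± 0.21, adjusted p = 0.0087). Ifi27l2a was at 725, 782, 849 and 1058 against 1421, 1450.2, 1055 and 1431 (0.77 ± 0.14, adjusted p = 0.0022). Slfn1 did not overlap between the cultures. In Igtp and Ifi27l2a WT Th22 replicate 1 lay just under WT Th17 replicate 2, and in Igtp also under KO Th17 replicate 2.

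Zbp1 was at 60.6, 43.2, 55.6 and 54.1 UPM in the Th17 libraries of cluster 8 and 120, 82.8, 56.7 and 84.5 in the Th22 libraries (0.82 ± 0.18, adjusted p = 0.012). Trim30a, which restrains inflammatory signalling, was at 45.0, 48.7, 46.3 and 61.8 against 97.0, 86.9, 52.3 and 87.9 (0.83 ± 0.19, adjusted p = 0.013). In both genes WT Th22 replicate 1 was the low Th22 library and overlapped with Th17. Ifi47 was at 26.6, 26.6, 18.5 and 32.0 against 70.5, 47.2, 21.8 and 59.2 (1.04 ± 0.24, adjusted p = 0.02). Ddx58 was at 6.43, 11.02, 20.4 and 9.93 against 26.4, 20.7, 23.99 and 27.0 (1.26 ± 0.31, adjusted p = 0.023), and Dtx3l at 42.2, 40.4, 38.9 and 49.7 against 74.1, 65.4, 41.4 and 93.0 (0.81 ± 0.20, adjusted p = 0.023). Among these 3, Ddx58 alone did not overlap between the cultures. Outside the cluster, 3 of 39 were called (Ddx58, Ifi27l2a and Parp14, background 1.79%). Whether the Th22 difference was larger inside than outside was not tested.

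The count inside cluster 8 moved with the fit. It was 18 with the block (background 4.5%), 3 by DESeq2 (0.701%) and 13 without the filter on low counts. Some of the tested genes, Ddx58 among them, had no DESeq2 adjusted p and counted as not called. The count was 1 with the median UMIs per cell of the whole library as a covariate, and between 2 and 14 when 1 library was left out. Leaving out WT Th22 replicate 2 ended the calls of Igtp, Zbp1, Trim30a, Ifi47, Ddx58 and Dtx3l, and 1 or more of the last 4 were also lost without KO Th17 replicate 1, KO Th22 replicate 2, or WT Th17 replicate 1 or 2. Median UMIs per cell in the cluster were 2615 and 2492 in KO Th17, 3039 and 2852 in KO Th22, 2215.5 and 3878 in WT Th17, and 2278 and 2921.5 in WT Th22. These medians of the cluster were not used as a covariate. Ifi27l2a was called under each alternative and Slfn1 under each but the covariate.

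**Figure D4:**
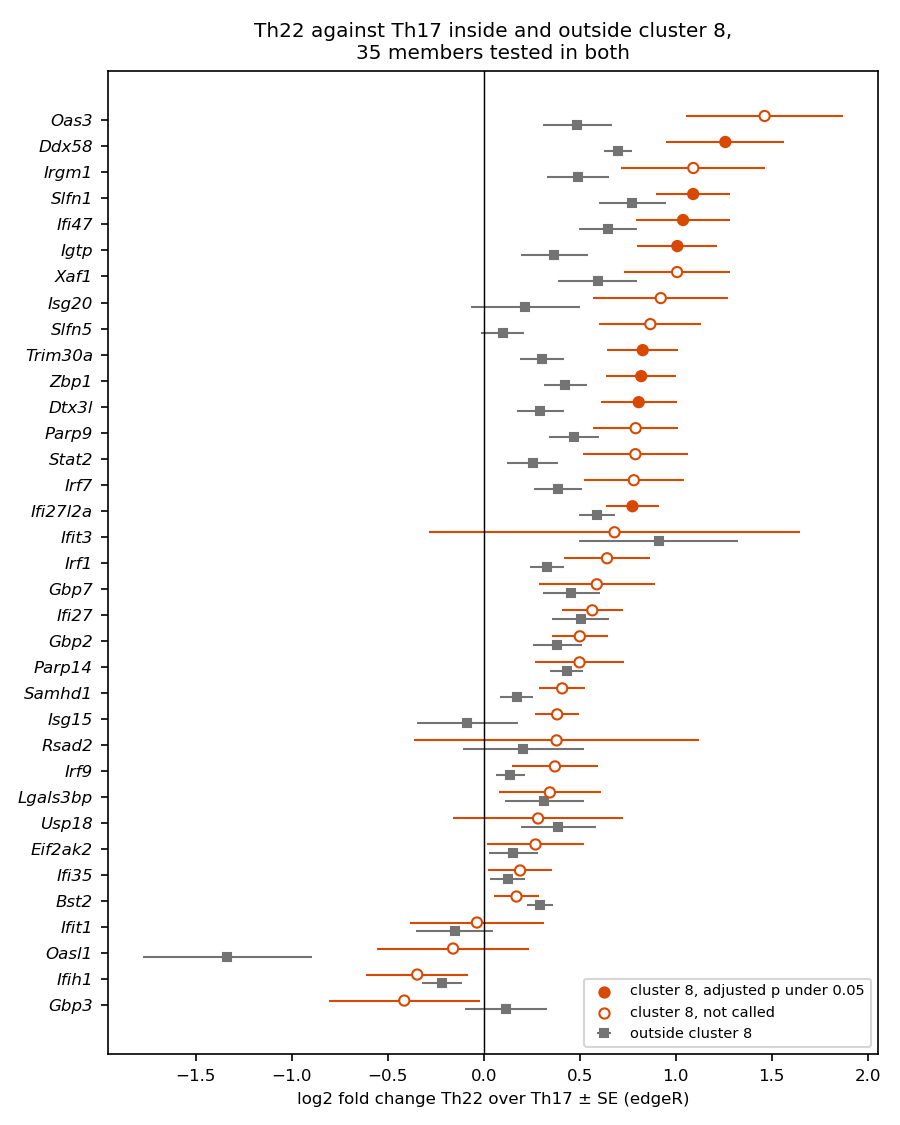
Log2 fold change ± SE of Th22 over Th17 for 35 interferon-stimulated genes inside cluster 8 (circles, filled where the adjusted p was under 0.05) and outside it (squares). The 8 filled circles all lie to the right of 0, and Ifih1, Oasl1 and Ifit1 lie to the left of it both inside and outside.

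Cluster by cluster, KO over WT gave 18 calls in 12 fits. The fits share the same 8 libraries, so agreement between clusters is not replication. The number of clusters where a gene was tested differed, from 12 for Ifi27 to 1 for Ifit3. The 18 calls are therefore not a share to set beside the backgrounds. Ifi27 was higher in KO in 6 of 12 clusters (0, 1, 2, 3, 4 and 6), and its log2 fold change was positive in all 12, from 0.26 to 1.25. Isg15 was higher in 3 of the 9 clusters where it was tested and positive in all 9, with 2.06 ± 0.40 in cluster 4, 1.44 ± 0.29 in cluster 7 and 1.12 ± 0.23 in cluster 2. Its mean level outside cluster 8 ran from 3.02 UPM in cluster 0 to 18.8 in cluster 7. Ifih1 was higher in clusters 1 and 2 (of 7 tested), Irf7 in cluster 1 (of 7), and Ddx58 lower in clusters 1 and 2 (of 10). The remaining calls were all in cluster 1, where 7.43% of all genes were called: Bst2 (0.26 ± 0.07) and Slfn5 (0.42 ± 0.10) higher, Samhd1 (-0.30 ± 0.08) and Dtx3l (-0.41 ± 0.11) lower. In clusters 0, 2, 3, 4, 6 and 7 the background was 1.23%, 2.4%, 0.429%, 0.818%, 0.38% and 0.247%. In the clusters with no call (5, 8, 9, 10 and 11) it was 0.21%, 0.381%, 0.227%, 0.198% and 0.273%. The count was 9 with thinned cells and 4 with libraries of 1 number summed.

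**Figure D5:**
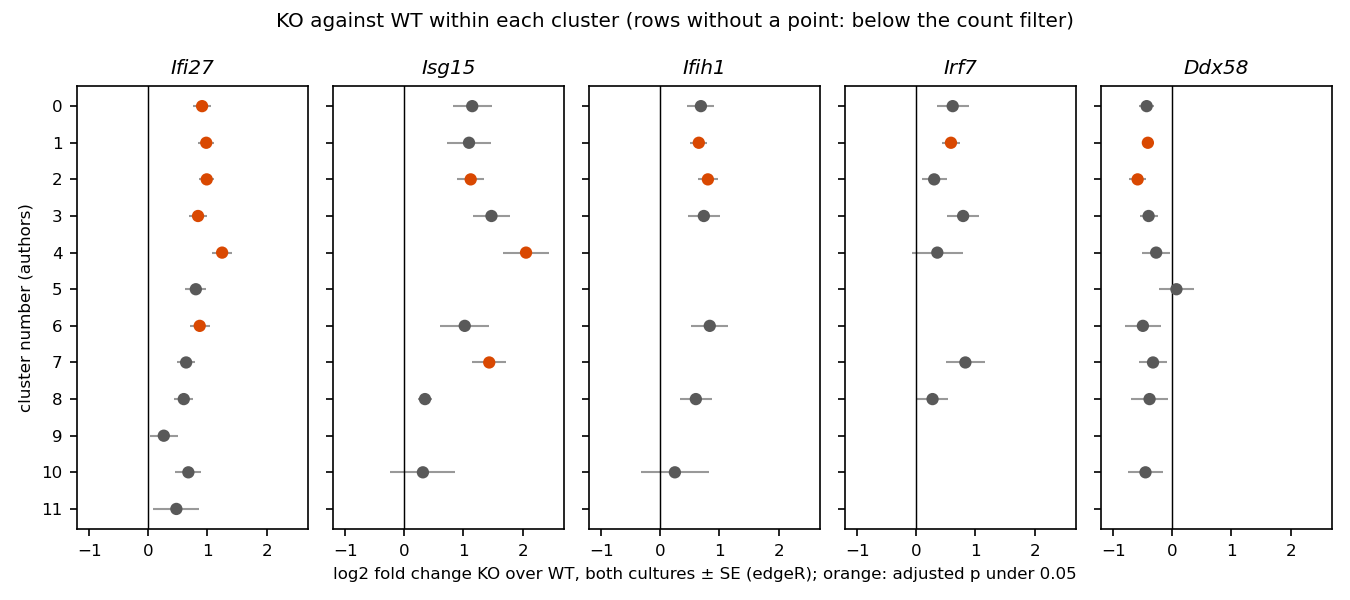
Log2 fold change ± SE of KO over WT within each of 12 clusters for Ifi27, Isg15, Ifih1, Irf7 and Ddx58, with orange points for an adjusted p under 0.05. All points of Ifi27, Isg15, Ifih1 and Irf7 lie to the right of 0, and 9 of the 10 points of Ddx58 to the left.

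The rest of the pathway showed few calls. Of the interferon genes themselves only Ifng passed the filter (KO over WT -0.36 ± 0.66, not called), with 220 UMIs in KO and 292 in WT, none of them in cluster 8. WT Th22 replicate 2 gave 189 of the 292, of which 147 were in 1 cell. The Ifng log2 fold change was 0.67 ± 0.36 without that library, 0.06 without KO Th22 replicate 1, 0.40 without the cells with most UMIs and 0.17 with all deposited cells, so its direction turned, and it was called in none of these fits. Ifnb1, the type I interferon made first after RNA sensing, gave 17 UMIs in 13 cells of KO and 0 of 168091424 UMIs in WT, which allows up to 0.0178 UPM there for counting error alone. Of the KO UMIs, 12 were from the Th17 libraries (7 and 5) and 5 from Th22 replicate 1, with 0 in the other Th22 library. Cluster 8 held 13 of the 17, and no test was made on so few. The receptors were not called: Ifnar1 -0.21 ± 0.11, Ifnar2 -0.04 ± 0.16, Ifngr1 -0.42 ± 0.28 and Ifngr2 -0.13 ± 0.22, nor were the kinases Jak1 (-0.21 ± 0.08) and Jak2 (0.10 ± 0.12). In KO over WT 0 of 8 receptors and kinases, 0 of 9 further STAT and IRF factors, 0 of 12 genes of the nucleic acid sensor pathway, 0 of 10 feedback regulators and 0 of 37 further type I targets were called. Of 24 further type II targets, 2 were called.

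Those 2 were Cd274, which encodes PD-L1, and the guanylate-binding protein Gbp9. Cd274 stood at 38.1 and 26.7 UPM in KO Th17, 17.1 and 11.9 in KO Th22, 19.2 and 18.6 in WT Th17, and 8.83 and 10.7 in WT Th22 (0.71 ± 0.13, edgeR adjusted p = 0.031), and Gbp9 at 7.74 to 11.1 in KO and 4.38 to 6.56 in WT (0.73 ± 0.15, adjusted p = 0.042). Gbp9 did not overlap between genotypes, and Cd274 lay higher in KO within each culture. Both calls were lost without KO Th17 replicate 1, without any 1 WT library or with same-numbered libraries summed. That of Gbp9 was also lost without KO Th22 replicate 2, with thinned cells and with the block across genotypes (edgeR adjusted p = 0.062). In Th22 over Th17, Slfn2 was higher (0.56 ± 0.08, edgeR adjusted p = 0.01) and Cd274 lower (-0.97 ± 0.13, adjusted p = 0.01). The call of Slfn2 was lost without WT Th22 replicate 2 (adjusted p = 0.06), and that of Cd274 without WT Th17 replicate 1 (0.051) or WT Th22 replicate 1 (0.0502). The genes nearest the threshold in the other lists were Phf11b (0.31 ± 0.07, adjusted p = 0.061), Ptpn6 (0.27 ± 0.08, 0.093), Ikbke (-0.26 ± 0.09, 0.15) and Stat4 (-0.41 ± 0.15, 0.18), and Socs1, the feedback inhibitor of interferon signalling, had -0.39 ± 0.21.

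Some markers moved with the comparisons. Cd4 was lower in KO (-0.36 ± 0.08, edgeR adjusted p = 0.044), and Cd3g (0.53 ± 0.08) and Cd3d (0.39 ± 0.08) were higher in Th22. Of 5 markers of plasmacytoid dendritic cells, which make type I interferon, 3 were in the files, and their sum was 21.0 to 71.9 UPM in KO and 9.96 to 17.3 in WT. Nearly all of it was Cox6a2 (21.0 to 71.9 in KO, log2 fold change 1.57 ± 0.21), Ccr9 was at 0 in every KO library, and 2 of the 3 were at 0 in cluster 8 of every library. The macrophage list, in which Cd68 gave nearly all UMIs, was at 21.7 to 29.7 in KO and 17.8 to 24.4 in WT. The part of these in the interferon-stimulated genes was not tested.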

How the data were processed

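The deposited files hold raw UMI counts per gene and cell in 1 sparse matrix of 104660 cells, with a table that gives each cell's library and the authors' cluster. Cell Ranger 5.0.1, Seurat and the mm10 build are named in the submitters' processing notes, and the sources used here do not give the authors' steps against doublets or low-quality cells. The deposited cell table also gives the percentage of mitochondrial UMIs, which reached no more than 10%, and cell cycle scores, which were not used here. A filter of at least 500 genes and no more than 10% mitochondrial UMIs left 101688 cells and removed 2972, and no doublet caller was run. Counts were summed per library over all cells, over the cells of each cluster and over the cells outside cluster 8. They were tested with edgeR 4.0.16 (TMM scaling, filter on low counts, robust quasi-likelihood F test, Benjamini-Hochberg adjustment over all genes tested, threshold 0.05) in R 4.3.3 with limma 3.58.1, with an additive model for contrasts over both cultures or genotypes and a group model otherwise. DESeq2 1.42.0 was the alternative tool. Shares of cells were computed after thinning each cell to 1500 UMIs (1000 as an alternative) in Python 3.11.15 with numpy 2.4.6, scipy 1.17.1 and pandas 2.3.3, and compared with an exact permutation test within culture. Levels are counts per 1000000 UMIs of the same cells. The edgeR test was checked on simulated counts of independent libraries, with changes placed in genes above a minimum level. That check did not cover libraries that deviate together or changes in genes at lower levels.

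Same-numbered libraries deviated together across the cultures of a genotype (r = 0.57 in KO and 0.23 in WT, across 13412 genes, which are not independent) and not across genotypes (-0.25 to -0.18), and the labels do not say what a number shares. Blocked values therefore stand beside contrasts of Th22 and Th17. In contrasts of KO and WT the block paired same-numbered libraries across genotypes, a pairing that the labels do not give. The 41 genes and all lists were chosen with earlier results of these data known. Values per library are given for genes called in all cells, in cluster 8 or outside it and for a fixed list of sensors, factors and effectors. From each further pathway list the genes with the smallest adjusted p were eligible, and receptors, Ifng, Ifnb1 and Socs1 were always given. The values of 1 gene of these lists, whose share of cells was among the 6 tested, are not reported here.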

Additional observations from a re-analysis of the deposited data

How the results depend on the processing

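Among the 41 genes, the count called between KO and WT over both cultures (5) became 3 with thinned cells and 0 with libraries of 1 genotype and number summed, and 1 to 8 when 1 library was left out (8 without KO Th22 replicate 1, 1 without WT Th17 replicate 1). Outside cluster 8 (4) it became 1 thinned, 0 summed and 0 to 7 (0 without either WT Th17 library). In cluster 8 (0) it became 1 without the filter, 1 with same-numbered libraries paired across genotypes, and 0 to 1 with a library left out. In single cultures (0) DESeq2 gave 2 in Th17 and 3 in Th22. Pairing crossed numbers across genotypes, an alternative chosen after seeing the data, gave 4 in Th17, 5 in Th22, 8 over both and 8 outside cluster 8. Th22 against Th17 (3) became 11 by DESeq2, 1 with median UMIs as a covariate, 21 with the block and 1 to 8 with a library left out (8 without KO Th22 replicate 1). Outside cluster 8 it became 11, 1, 20 and 1 to 9, and 5 thinned. In cluster 8 (8) it became 3, 1, 18 and 2 to 14 (2 without WT Th22 replicate 2, 14 without WT Th22 replicate 1), and 13 without the filter. There the covariate was the median of the whole library, and genes without a DESeq2 adjusted p counted as not called. In WT alone (0) DESeq2 gave 2, the 4 libraries alone 2 and the block 19, in KO alone DESeq2 gave 3 and the block 21, and the block gave 3 interactions. Calls per cluster (18) became 9 thinned, 4 summed and 6 to 24 (24 without KO Th22 replicate 1, 6 without WT Th17 replicate 1).

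Some log2 fold changes near 0 changed sign, and no called gene did. In KO over WT, thinning gave Irf1 -0.022, Rsad2 -0.36 and Parp14 0.0094, and Igtp was 0.013 with the covariate and 0.019 summed. With a library left out, Ifi47 ranged from -0.22 to 0.029, Igtp from -0.14 to 0.11, Irf1 from -0.0097 to 0.12, Irgm1 from -0.25 to 0.0067, Parp14 from -0.085 to 0.0064, Rsad2 from -0.30 to 0.29 and Stat2 from -0.016 to 0.17. In Th22 over Th17, thinning gave Isg15 0.031 and Rsad2 -0.072, and the covariate gave Ifit3 -0.12, Rsad2 -0.27 and Usp18 -0.019. With a library left out, Ifit3 ranged from -0.19 to 0.59 and Rsad2 from -0.33 to 0.25. Of 927 values for single genes of the 41 under all alternatives, 771 kept their direction and side of the threshold, 108 lost their call, 19 gained one and 29 changed sign. The cause of these changes was not tested. The fit for cluster 10 without the cells with most UMIs could not be made. Depth limits the genes with few UMIs: Oasl1 rests on 167 UMIs over the 8 libraries and Ifnb1, an interferon gene and no member, on 17.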
